A study of Rattus norvegicus with 12 samples.

Results

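The genes described here are 6 intermediate filament genes of epithelial, mesenchymal or progenitor cells, and the 4 transcription factors that are best known for turning epithelial cells mesenchymal. They are Vim, Nes, Krt7, Krt8, Krt18, Krt19, Snai1, Snai2, Zeb1 and Zeb2, the 10 rows with these names among the 28727 named rows of the count table. They were chosen by name, by a rule that uses no measured value, when earlier results of these data were known. Of the 10, 8 passed a filter on low counts and were tested among 14669 genes. Nes and Krt19 did not pass it, and only their counts are given.

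The RNA came from INS-1 832/13 cells, an insulin-secreting line derived from a rat insulinoma. They were transduced either with a control adenovirus for GFP or with an adenovirus for mCherry-tagged mouse ChREBPβ, the short and more active form of the product of Mlxipl, a transcription factor that responds to glucose, so that the controls had a virus as well. Cells with either virus were kept for 48 h in 2 mM or in 11 mM glucose, with 3 libraries in each of the 4 groups and 12 in all. All cells were of this cell line, transduced in culture. The edgeR p-values rest on the spread between the 3 libraries within a group, estimated over all 4 groups together. The labels do not say whether the libraries came from separate cultures, while the study describes its plotted expression values as averages of independent experiments.

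Intermediate filaments are the rope-like part of the cytoskeleton. In simple epithelia they are built from pairs of a type II keratin, such as Krt7 or Krt8, with a type I keratin, such as Krt18 or Krt19, and in the pancreas Krt8 and Krt18 are found in epithelial cells in general while Krt7 and Krt19 mark the ducts. Mesenchymal cells use vimentin, the product of Vim, and nestin is found in progenitor cells together with other filament proteins. Snai1, Snai2, Zeb1 and Zeb2 encode zinc finger proteins that bind E-boxes of the form CACCTG and repress epithelial genes, of which Cdh1, the gene for E-cadherin, is the best known.

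Library totals ranged from 25754488 to 60531215 counts. Levels are given as CPM, counts per 1000000 counts of the library after scaling by TMM factors, so that a change is relative to the bulk of all genes, and since no transcript lengths were used, levels are compared between groups and not between genes. A gene passed the test, or was called, if it differed by 1.2-fold or more and its edgeR adjusted p was under 0.05. The rat gene Mlxipl did not mark the overexpression, since it was at 256 ± 18.8 CPM (SD, n = 3) in the GFP libraries and 205 ± 6.63 CPM in the libraries labelled ChREBPβ at 2 mM, with 207 ± 5.32 and 188 ± 11.0 CPM in the same order at 11 mM. An entry named ChREBPb was at 77.8 ± 4.53 and 90.1 ± 0.504 CPM at 2 mM, and at 68.0 ± 4.63 and 88.0 ± 9.0 CPM at 11 mM. The ChREBPb entry was called higher with the ChREBPβ label at 11 mM (1.29-fold, edgeR adjusted p = 6.9e-05). At 2 mM it was 1.16-fold higher (edgeR adjusted p = 0.00841), which is below 1.2-fold. The groups overlapped at neither concentration. What this entry counts is not given in the sources used here. The transgene was of mouse, and no entry is known to count its transcript on its own. For this reason the groups are named by their labels. In RNA from whole cultures, fewer cells of a type and less RNA per cell cannot be told apart. The 14 β-cell markers, which stand for the cell line's own identity, were all counted, and their summed level was 24255 to 27171 CPM in the GFP libraries at 2 mM, 19708 to 21557 CPM at 11 mM, 13057 to 13476 CPM in those labelled ChREBPβ at 2 mM and 12333 to 12892 CPM at 11 mM.

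The DNA just before the start of Snai1, the gene with the largest change among them, and of Krt8 and Krt18, the keratin pair whose balance moved, is shown first. Of the 10 genes, 7 had an entry in the RefSeq promoter table for GRCr8, from which the 250 bases before the start of each gene were read on its own strand. In that build the windows lie at chr3:176667226-176667475 on the plus strand for Snai1, chr7:135010340-135010589 on the minus strand for Krt8 and chr7:135035918-135036167 on the plus strand for Krt18. Capitals mark the E-box CACCTG, read on both strands.
Snai1: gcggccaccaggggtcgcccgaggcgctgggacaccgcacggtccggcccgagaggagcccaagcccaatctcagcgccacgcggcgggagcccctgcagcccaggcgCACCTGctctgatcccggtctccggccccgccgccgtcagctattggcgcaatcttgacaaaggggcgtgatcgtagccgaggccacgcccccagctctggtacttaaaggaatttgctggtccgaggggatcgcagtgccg
Krt8: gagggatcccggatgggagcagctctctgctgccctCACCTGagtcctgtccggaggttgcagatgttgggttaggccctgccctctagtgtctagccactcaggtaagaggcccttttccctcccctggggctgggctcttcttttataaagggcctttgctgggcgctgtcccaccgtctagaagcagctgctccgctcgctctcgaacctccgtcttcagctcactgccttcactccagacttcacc
Krt18: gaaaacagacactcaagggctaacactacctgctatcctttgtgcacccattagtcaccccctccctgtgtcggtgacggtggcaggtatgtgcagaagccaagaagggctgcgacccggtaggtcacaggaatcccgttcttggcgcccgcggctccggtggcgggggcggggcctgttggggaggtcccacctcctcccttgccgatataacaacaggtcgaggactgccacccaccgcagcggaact
The windows of Snai1 and Krt8 each hold CACCTG, 142 and 214 bases before the start, and that of Krt18 does not. Among the other members with an entry, Zeb1 holds it, 95 bases before its start. It was found in 15.9% of the 33469 windows of the table, so that its presence in 3 of 7 is a description of these sequences only. The E-box CACGTG, a form found in carbohydrate response elements, was in 5.59% of all windows and in no window of the 7 members. The search covered only these 250 bases and only exact matches of CACCTG and CACGTG. Whole carbohydrate response elements and inexact forms of the motifs were not searched for, so whether the windows hold them was not tested. Krt8 and Krt18 lie next to each other on opposite strands, with their starts 25829 bases apart.

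The main comparison was that of the libraries labelled ChREBPβ with the GFP libraries at the same glucose concentration, which asks what the active isoform does to gene expression at low and high glucose. At 2 mM glucose, Snai1 rose 27.4-fold, Snai2 fell 2.10-fold and Krt18 fell 1.77-fold. At 11 mM, Snai1 rose 24.3-fold and Krt7 1.33-fold, while Snai2 fell 1.63-fold and Krt18 1.42-fold. Of the 8 tested members, 1 was called higher and 5 were called lower at 2 mM, where 44.1% of all tested genes were called, 21.0% higher and 23.2% lower. At 11 mM, 2 were called higher and 4 lower, where 33.4% of all genes were called, 14.3% higher and 19.1% lower. Those called lower include Vim at each concentration, which passed the filter through the GFP libraries, where it was higher, and is described with its counts. DESeq2 called 4 of the 8 members at 2 mM and 5 at 11 mM, and its share of all genes is not given here. At 2 mM, the edgeR calls of Vim, Krt8 and Zeb1 were lost in 9, 3 and 2 of the 12 fits without a library. At 11 mM, those of Zeb2 and Snai2 were lost in 9 and 1. The median log2 fold change over the 8 members was -0.47 at 2 mM and -0.34 at 11 mM, beside -0.02 over all tested genes in each. The libraries of both viruses did not overlap for 8 of the 8 tested members at 2 mM (63.3% of all genes) and for 6 of the 8 at 11 mM (56.1% of all genes). The plot of fold changes gives each member with its interval.

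**Figure D1:**
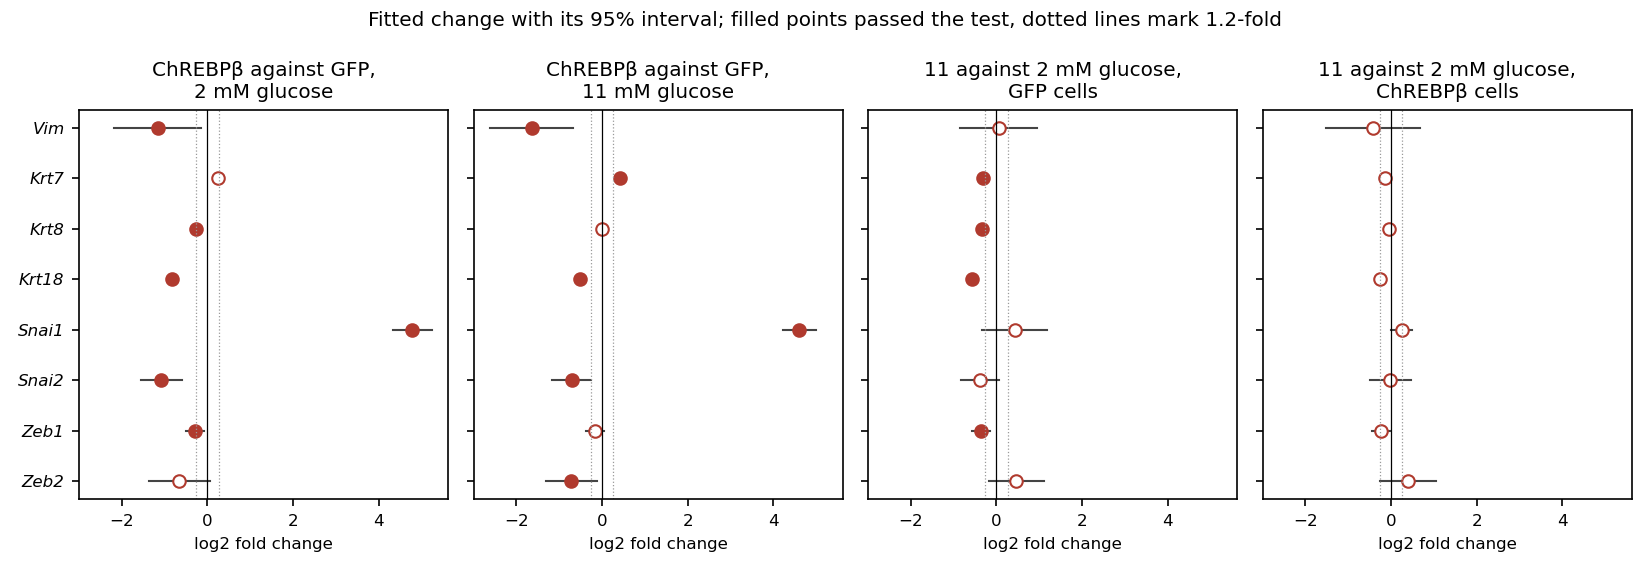
Log2 fold change (horizontal axis) of the 8 tested genes (rows) in 4 comparisons, with 95% intervals from the edgeR fit over 12 libraries. Filled points were called, and dotted lines mark 1.2-fold. Snai1 stands apart at 4.78 and 4.60 in the comparisons of the viruses.

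Snai1, which encodes Snail, a repressor of E-cadherin, was at 0.184, 0.175 and 0.481 CPM in the GFP libraries at 2 mM and at 0.398, 0.402 and 0.338 CPM at 11 mM. The libraries with the ChREBPβ label held it at 6.59, 8.15 and 8.34 CPM at 2 mM and at 9.36, 9.31 and 9.05 CPM at 11 mM. All 6 libraries labelled ChREBPβ lay far above all 6 GFP libraries. The GFP values rest on 5 to 18 counts per library and the others on 184 to 549. On the log2 scale the change was 4.78 (standard error 0.22, edgeR adjusted p = 2.67e-13) at 2 mM and 4.60 (standard error 0.18, edgeR adjusted p = 5.77e-14) at 11 mM, and it was called in every fit that left out a library. Without replicate c of GFP at 2 mM, the highest of its group, the change at 2 mM was 5.42. Between the glucose concentrations the difference was smaller. It was 0.43 on the log2 scale in GFP cells (edgeR adjusted p = 0.403) and 0.25 in the cells labelled ChREBPβ (edgeR adjusted p = 0.236), where the 3 libraries at 11 mM nevertheless lay above the 3 at 2 mM.

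Snai2, which encodes Slug, the close relative of Snail, moved the other way. It was at 3.05, 1.95 and 2.02 CPM in the GFP libraries at 2 mM and at 1.92, 1.95 and 1.48 CPM at 11 mM. With the ChREBPβ label it was at 1.22, 1.12 and 1.00 CPM at 2 mM and at 1.18, 1.21 and 0.878 CPM at 11 mM. The highest of the latter 6 was below the lowest of the GFP libraries, and each library held 34 to 87 counts. Its log2 fold change was -1.07 (standard error 0.22, edgeR adjusted p = 0.000398) at 2 mM and -0.71 (standard error 0.22, edgeR adjusted p = 0.0106) at 11 mM. The call at 11 mM was lost without replicate c of the libraries labelled ChREBPβ at 11 mM (edgeR adjusted p = 0.0553). Higher glucose gave a log2 difference of -0.38 in GFP cells (edgeR adjusted p = 0.182) and of -0.02 in the others (edgeR adjusted p = 0.981).

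Because Snai1 and Snai2 moved in opposite directions, the ratio of their counts within a library, which needs no scaling, was taken as well. There were 0.0602, 0.0896 and 0.238 counts of Snai1 for each count of Snai2 in the GFP libraries at 2 mM and 0.207, 0.205 and 0.229 at 11 mM. The ChREBPβ-labelled libraries gave 5.41, 7.25 and 8.32 at 2 mM and 7.96, 7.70 and 10.3 at 11 mM. Snai1 had fewer counts than Snai2 in all 6 GFP libraries and more in all 6 of the others. The exact two-sided permutation test gave p = 0.1 at each glucose concentration, which is the smallest p that 3 against 3 libraries allow, and 0.114 after adjustment over the 24 tests of ratios.

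Zeb1, a repressor with zinc fingers and a homeobox, was slightly lower with the ChREBPβ label at 2 mM. It was at 8.34, 8.40 and 9.49 CPM in the GFP libraries at 2 mM and at 7.48, 7.27 and 6.89 CPM in those labelled ChREBPβ, which lay below them. At 11 mM it was at 6.83, 7.20 and 6.51 CPM in GFP libraries and at 6.79, 6.07 and 5.48 CPM in the others, and the groups overlapped. The fitted change on the log2 scale was -0.28 (standard error 0.10, edgeR adjusted p = 0.0211) at 2 mM, which was called, and -0.16 (95% interval -0.37 to 0.04, edgeR adjusted p = 0.186) at 11 mM, which was not. The call at 2 mM was lost without replicate c of GFP at 2 mM (edgeR adjusted p = 0.0983) and without replicate c of ChREBPβ at 2 mM (edgeR adjusted p = 0.082). Zeb1 was 1.28-fold lower at 11 than at 2 mM in GFP cells (edgeR adjusted p = 0.00987), a call that was lost without replicate c of GFP at 2 mM (edgeR adjusted p = 0.0536).

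Zeb2, its paralog, was at 0.588, 0.525 and 0.737 CPM in the GFP libraries at 2 mM and at 0.686, 0.884 and 0.973 CPM at 11 mM. For ChREBPβ libraries the values were 0.215, 0.428 and 0.466 CPM at 2 mM and 0.563, 0.544 and 0.439 CPM at 11 mM. At each glucose concentration the GFP libraries lay above the others, on 6 to 46 counts per library. On the log2 scale the change was -0.65 (95% interval -1.35 to 0.05, edgeR adjusted p = 0.105) at 2 mM and -0.71 (standard error 0.29, edgeR adjusted p = 0.046) at 11 mM. The latter was called but near the threshold: 9 of the 12 fits without a library lost it, with adjusted p-values of up to 0.165, and DESeq2 gave an adjusted p of 0.0695. Zeb2 overlaps Zeb2-as1 in the RefSeq annotation of GRCr8, and whether the counting used strand is not given in the sources used here, so the reads of these genes cannot be told apart. Zeb1 overlaps 2 uncharacterized genes there.

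The keratins Krt7, Krt8 and Krt18 were counted deeply, and their changes were small and of different sign. How reads that match several places in the genome were counted is not given in the sources used here, and Krt8 and Krt18 have processed copies in mammalian genomes, so their counts are uncertain to that extent. Krt18, the type I partner of Krt8, was at 328, 346 and 390 CPM in the GFP libraries at 2 mM and at 253, 228 and 238 CPM at 11 mM. Under the ChREBPβ label it stood at 206, 192 and 203 CPM at 2 mM and at 168, 167 and 170 CPM at 11 mM. The 4 groups did not overlap and were ordered GFP at 2 mM, GFP at 11 mM, ChREBPβ at 2 mM and ChREBPβ at 11 mM from high to low. The log2 fold change between the viruses was -0.82 (standard error 0.05, edgeR adjusted p = 8.9e-11) at 2 mM and -0.51 (standard error 0.05, edgeR adjusted p = 1.52e-07) at 11 mM, both called in every fit without a library. Higher glucose lowered Krt18 1.48-fold in GFP cells (edgeR adjusted p = 1.42e-07). In the cells labelled ChREBPβ the difference of 1.19-fold had an edgeR adjusted p of 0.00594 but was below the minimum of 1.2-fold.

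Krt8 was at 1635, 1728 and 1920 CPM in the GFP libraries at 2 mM and at 1456, 1332 and 1406 CPM at 11 mM. The ChREBPβ-labelled libraries had 1450, 1446 and 1497 CPM at 2 mM and 1354, 1435 and 1434 CPM at 11 mM. The GFP libraries at 2 mM lay above all others, those labelled ChREBPβ lay higher at 2 mM than at 11 mM, and the GFP libraries at 11 mM overlapped with both of the latter. Its log2 fold change was -0.27 (standard error 0.05, edgeR adjusted p = 0.000143) at 2 mM, a fold of 1.202 that lies at the minimum of 1.2-fold and fell under it with DESeq2, with RLE factors and without replicate c of GFP or replicate a or b of ChREBPβ at 2 mM. At 11 mM it was 0.010 (95% interval -0.10 to 0.12, edgeR adjusted p = 0.887). Higher glucose lowered Krt8 1.26-fold in GFP cells (edgeR adjusted p = 3.67e-05) and gave a log2 difference of -0.06 in the others (95% interval -0.16 to 0.05, edgeR adjusted p = 0.573).

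Krt7, a type II keratin of ducts, rose with the ChREBPβ label at 11 mM. It was at 129, 132 and 139 CPM in the GFP libraries at 2 mM and at 114, 103 and 106 CPM at 11 mM. The libraries with the ChREBPβ label held it at 153, 156 and 162 CPM at 2 mM and at 143, 143 and 145 CPM at 11 mM. The 4 groups did not overlap. The fitted change on the log2 scale was 0.42 (standard error 0.05, edgeR adjusted p = 2.21e-07) at 11 mM. At 2 mM it was 0.24 (standard error 0.05, edgeR adjusted p = 0.00013), which is below 1.2-fold and was therefore not called. Higher glucose lowered Krt7 1.24-fold in GFP cells (edgeR adjusted p = 3.09e-05). Krt19, its usual type I partner in ducts, had 3 counts in all 12 libraries together, 1 in a GFP library at 11 mM and 2 in a library labelled ChREBPβ at 2 mM. The groups at 0 counts allow up to 3 counts per library, which at their mean depth is 0.0971 CPM in GFP at 2 mM and 0.0528 CPM in ChREBPβ at 11 mM, for counting error only.

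**Figure D2:**
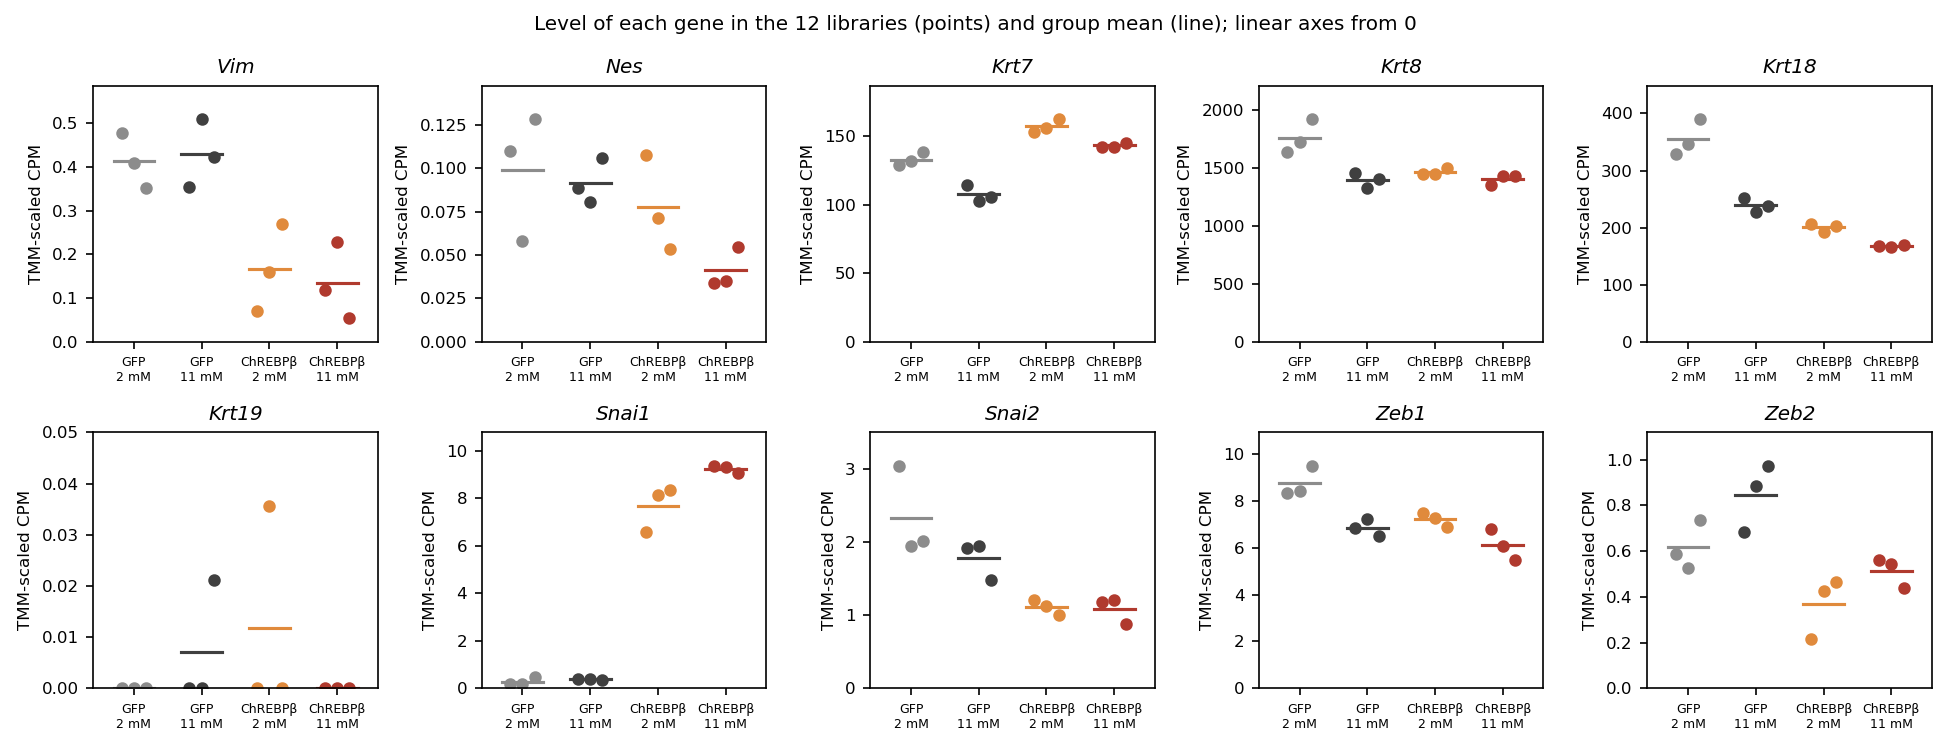
Level of each of the 10 genes in TMM-scaled CPM (vertical axes, linear, from 0) in the 4 groups of virus and glucose. Points are libraries and lines are group means (n = 3). Snai1 is near 0 in GFP libraries and at 6.59 to 9.36 CPM in those labelled ChREBPβ, while Krt18 steps down from group to group.

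Since type I and type II keratins pair in the filament, the balance of Krt8 to Krt18 was followed within each library. There were 4.98, 4.99 and 4.93 counts of Krt8 for each count of Krt18 in the GFP libraries at 2 mM and 5.77, 5.84 and 5.91 at 11 mM. With the ChREBPβ label the ratio was 7.02, 7.54 and 7.37 at 2 mM and 8.05, 8.60 and 8.44 at 11 mM. Without overlap, the ratio rose from group to group, and since it is a ratio of counts it contains the lengths of both transcripts and is read only between groups. Relative to GFP it was 1.47-fold higher at 2 mM and 1.43-fold higher at 11 mM, and relative to 2 mM glucose it was 1.18-fold higher at 11 mM in GFP cells and 1.14-fold higher in those labelled ChREBPβ. With 3 libraries a group, the exact two-sided permutation test gave p = 0.1 for each of these comparisons, the smallest it can give, and 0.114 after adjustment over the 24 tests. The ratio of all type II to all type I counts among the 4 keratins gave folds of 1.52 at 2 mM and 1.47 at 11 mM. Over all libraries Krt7 had 72923 counts beside 790602 of Krt8, and Krt19 had 3 beside 120701 of Krt18. This ratio is therefore largely that of Krt8 to Krt18 again and is not further evidence.

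**Figure D3:**
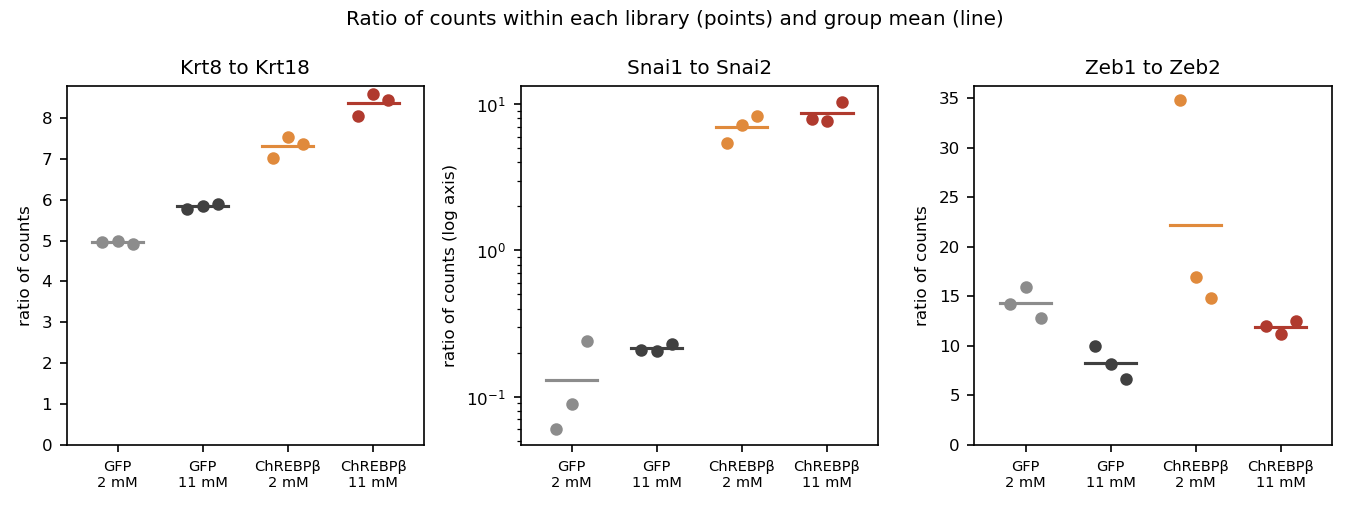
Ratio of the counts of 2 genes within each library (vertical axes, a log axis for Snai1 to Snai2) in the 4 groups. Points are libraries and lines are group means (n = 3). Krt8 to Krt18 rises from 4.93 to 8.60 with no overlap between groups, and Snai1 to Snai2 is below 1 in GFP libraries and above 5 in the others.

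The ratio of Zeb1 to Zeb2 counts was lower at 11 than at 2 mM with either virus. It was 14.2, 16.0 and 12.9 in the GFP libraries at 2 mM and 9.97, 8.15 and 6.70 at 11 mM. With the ChREBPβ label it was 34.8, 17.0 and 14.8 at 2 mM and 12.1, 11.2 and 12.5 at 11 mM. That of 34.8 comes from replicate a, the shallowest library of its group, in which Zeb2 had 6 counts. The groups at 2 and 11 mM did not overlap for either virus, with p = 0.1 by the exact permutation test and 0.114 after adjustment. Between the viruses at 11 mM, the ratio was 1.46-fold higher with the ChREBPβ label, also without overlap and with the same values of p. At 2 mM it was 1.44-fold higher, and the groups overlapped (exact permutation p = 0.2, adjusted 0.218).

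Vim and Nes were at the limit of detection. Vim was counted 13, 14 and 11 times in the GFP libraries at 2 mM and 16, 19 and 20 times at 11 mM. Under the ChREBPβ label it was counted 2, 9 and 15 times at 2 mM and 7, 13 and 3 times at 11 mM. In CPM this was 0.353 to 0.478 and 0.354 to 0.509 in the GFP groups, and 0.0716 to 0.269 and 0.0548 to 0.228 in the others, which lay below them without overlap. On the log2 scale the change was -1.64 (standard error 0.46, edgeR adjusted p = 0.00591) at 11 mM, and -2.24 without replicate b of ChREBPβ at 11 mM. At 2 mM it was -1.16 (standard error 0.48, edgeR adjusted p = 0.045), and this call was lost in 9 of the 12 fits without a library, with adjusted p-values of up to 0.128, and with DESeq2 (adjusted p = 0.0509). Of the 7 libraries in which Vim reached the filter's 0.220 CPM, 6 were GFP libraries, so that it entered the test through the group in which it was higher. Nes had 2 to 5 counts in every library and 38 in all.

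The order of the groups differed between the members. Krt7 was highest with ChREBPβ at 2 mM and lowest with GFP at 11 mM, with no called difference between GFP at 2 mM and ChREBPβ at 11 mM, which are next to each other. For Snai1, only the step from GFP at 11 mM to ChREBPβ at 2 mM was called among neighbours, with a log2 difference of 4.35 (edgeR adjusted p = 2.54e-13). For Snai2 it was the same step, downward, at -0.69 (edgeR adjusted p = 0.0175), lost without replicate c of ChREBPβ at 2 mM (0.0793) or replicate a (0.0613) or b (0.0563) of GFP at 11 mM. For Zeb2 no neighbours in the order differed by a call. Its highest group, GFP at 11 mM, and its lowest, ChREBPβ at 2 mM, differed by a log2 change of -1.11 (edgeR adjusted p = 0.00659). In the comparisons that cross virus and glucose, 6 of 8 members were called between ChREBPβ at 11 mM and GFP at 2 mM (50.5% of all genes) and 5 of 8 between ChREBPβ at 2 mM and GFP at 11 mM (27.0% of all genes). These comparisons share their libraries with those above and are not further evidence.

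In GFP cells, glucose lowered Krt7, Krt8, Krt18 and Zeb1, 4 of the 8 tested members, where 20.2% of all genes were called, 10.0% lower. The median over the members was -0.32. In the cells labelled ChREBPβ, edgeR called 0 of the 8, where 3.87% of all genes were called. There, 4 members had an unadjusted p under 0.05 and DESeq2 called 0 as well, with a median over the members of -0.10. Whether the effect of ChREBPβ itself differed between 2 and 11 mM was tested as an interaction. It was called for 2 of 8 members, Krt8 at 0.28 (standard error 0.07, edgeR adjusted p = 0.0204) and Krt18 at 0.31 (standard error 0.08, edgeR adjusted p = 0.0133), beside 6.31% of all genes, 1.56% in this upward direction. For both keratins the difference from GFP was more negative at 2 mM than at 11 mM. The Krt8 call was lost without replicate b of ChREBPβ at 11 mM (0.0577) or at 2 mM (0.0602), and went under 1.2-fold in 3 other fits. The Krt18 call was lost without replicate b of ChREBPβ at 2 mM (0.0533), and went under 1.2-fold without replicate c of GFP at 2 mM. Krt7 had an interaction of 0.17 (edgeR adjusted p = 0.109), and for Snai1 it was -0.17 (95% interval -0.97 to 0.62, edgeR adjusted p = 0.851).

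The lists that follow are read beside the shares of all tested genes that were called, 21.0% higher and 23.2% lower at 2 mM and 14.3% higher and 19.1% lower at 11 mM. Among the other intermediate filament genes, 11 of 24 listed were tested, and 3 rose and 3 fell at 2 mM, with a median log2 fold change of -0.06. At 11 mM, 1 rose and 3 fell, with a median of -0.02. Those that fell were Synm, which encodes synemin, at -1.57 and -1.36, and the neurofilament genes Nefl at -1.11 and -1.06 and Nefm at -1.08 and -0.62 at 2 and 11 mM. Nefh, also a neurofilament gene, did not fall, at 0.24 and 0.03. At 2 mM its groups did not overlap (edgeR adjusted p = 8.93e-05), but the change was under 1.2-fold and not called. Prph, another filament gene, was not called either, at -0.0004 and 0.07. Nefh and Prph were named after their values were seen. Synm was at 8.93 ± 0.622 and 7.15 ± 0.908 CPM in GFP libraries and at 3.0 ± 0.276 and 2.77 ± 0.583 CPM in those labelled ChREBPβ, at 2 and 11 mM (SD, n = 3). The lamin genes rose at 2 mM, Lmna at 0.59, Lmnb1 at 0.28 and Lmnb2 at 0.34, and at 11 mM Lmna rose at 0.60. The keratins Krt5, Krt14 and Krt17 of stratified epithelia had no count in any library.

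The desmosome and linker genes tie filaments to junctions and to other parts of the cytoskeleton. Of 12 listed, 10 were tested, and 2 rose and 3 fell at each glucose concentration, where 44.1% (2 mM) and 33.4% (11 mM) of all genes were called in either direction, with medians of -0.16 and -0.06. The genes that fell were Evpl, which encodes envoplakin, at -1.16 and -0.72, Ppl, for periplakin, at -0.67 and -0.35, and Pkp2, for a plakophilin, at -0.48 and -0.38. Evpl was at 28.7 ± 1.43 and 17.5 ± 0.335 CPM in GFP libraries and at 12.9 ± 1.25 and 10.6 ± 1.10 CPM in the others, at 2 and 11 mM. Dst, which encodes dystonin, rose at 0.31 and 0.57. In GFP cells, higher glucose lowered 3 of these 10 genes, Evpl, Ppl and Pkp3, where 20.2% of all genes were called, 10.0% lower. Pkp3 was named after its value was seen. Ppl at 11 mM passed the test although the groups overlapped.

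Other transcription factors of the mesenchymal transition were mostly low. Of 14 listed, 7 were tested, and those called, 2 at 2 mM and 3 at 11 mM, were all lower. Twist1 was at 21.0 ± 0.839 and 21.2 ± 2.52 CPM in GFP libraries and at 16.6 ± 0.507 and 16.0 ± 1.32 CPM in those labelled ChREBPβ, with log2 fold changes of -0.35 (edgeR adjusted p = 0.00134) and -0.41 (edgeR adjusted p = 0.000262). Tcf7l2, an effector of Wnt signalling, fell at 2 mM (-0.65), and Gsc (-0.30) and Lef1 (-0.85) fell at 11 mM. Lef1 was named after its value was seen. Twist2 and Foxc2 had no count in any library. The medians were -0.17 and -0.30.

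Of the epithelial genes, 15 of 20 were tested, and 4 rose and 4 fell at 2 mM and 4 rose and 5 fell at 11 mM, with medians of -0.14 and -0.03. Cdh1 was at 459 ± 24.3 and 427 ± 15 CPM in GFP libraries and at 417 ± 3.50 and 430 ± 12.9 CPM in those labelled ChREBPβ, at 2 and 11 mM. It was not called in either comparison, with log2 fold changes of -0.14 (95% interval -0.23 to -0.05) and 0.01 (95% interval -0.08 to 0.10). At 2 mM the groups did not overlap and the edgeR adjusted p was 0.00841, but the change was below the minimum of 1.2-fold. At 11 mM the groups overlapped (edgeR adjusted p = 0.869). Ovol2, a repressor that counters Zeb1 in epithelia, rose at 0.70 and 0.65, and Tjp3, a tight junction gene, at 0.64 and 0.61. Marveld2, which encodes tricellulin, fell at -0.55 and -0.40 and Crb3, a polarity gene, at -0.48 and -0.44.

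Of the mesenchymal genes, 14 of 24 were tested, and 2 rose and 6 fell at 2 mM and 3 rose and 5 fell at 11 mM, with medians of -0.21 and -0.26. S100a4, which encodes a calcium-binding protein also known as fibroblast-specific protein, rose from 1.45 ± 0.208 to 210 ± 8.12 CPM at 2 mM, a change of 7.16 in log2 units (standard error 0.11, edgeR adjusted p = 1.3e-20). Axl, a receptor tyrosine kinase, was called higher in both comparisons, at 0 to 9 counts per library with GFP and 14 to 58 with the ChREBPβ label. Acta2, for smooth muscle actin, was called higher at 11 mM, at 3 to 9 counts with GFP and 19 to 21 with the ChREBPβ label. Both passed the filter through the libraries in which they were high, and they were named after their values were seen. Fn1, for fibronectin, fell at -0.95 at 2 mM (edgeR adjusted p = 2.03e-07) and at -0.83 at 11 mM (edgeR adjusted p = 1.55e-06), from 1037 ± 184 to 538 ± 17.7 CPM at 2 mM. Cdh11, a cadherin of mesenchymal cells, fell at -1.41 and -0.92, and Thy1, a surface glycoprotein, at -1.12 and -0.89. Cdh2, for N-cadherin, was at 147 ± 1.92 and 144 ± 1.73 CPM at 2 mM, with a log2 fold change of -0.02 (95% interval -0.10 to 0.06, edgeR adjusted p = 0.669).

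**Figure D4:**
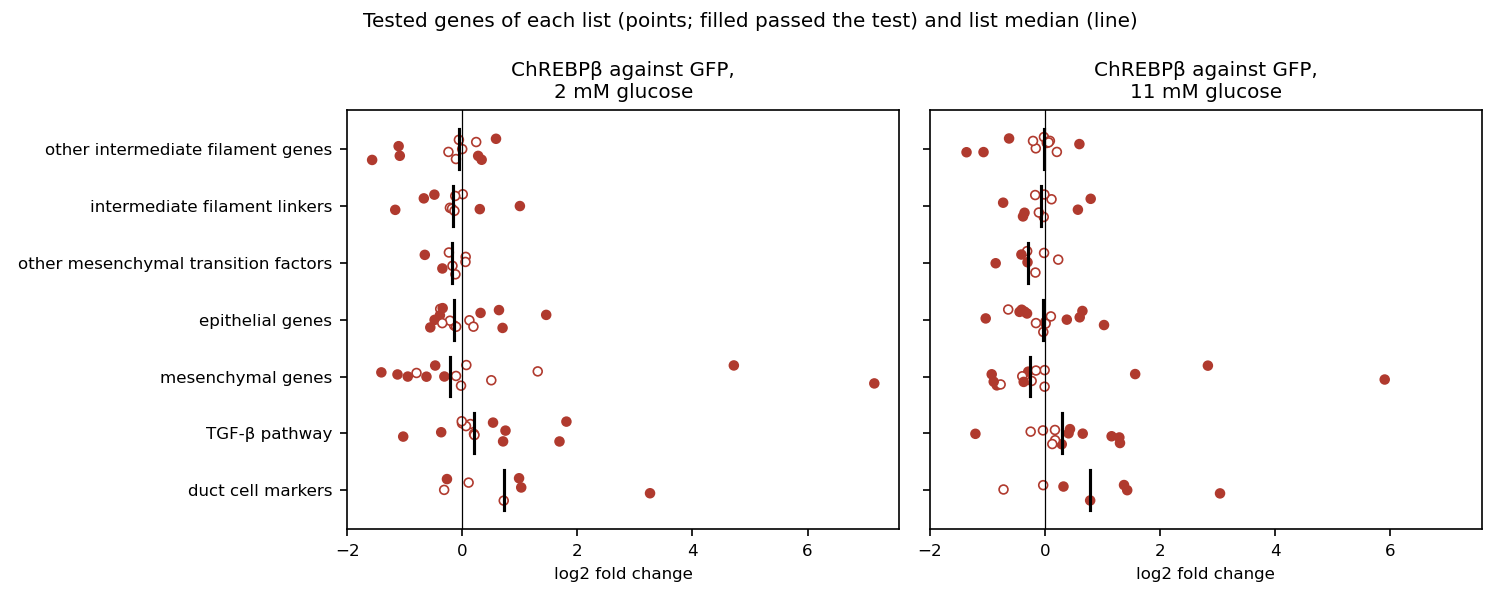
Log2 fold change (horizontal axes) of the tested genes of 7 lists (rows) with ChREBPβ against GFP at 2 mM and at 11 mM glucose. Points are genes, filled where called, and lines are list medians. The mesenchymal list holds the largest increase, S100a4 at 7.16 and 5.91, with more genes lower than higher.

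TGF-β signalling is the pathway best known for inducing Snail in other cells. Of 14 genes listed, 13 were tested, and 5 rose and 2 fell at 2 mM and 7 rose and 1 fell at 11 mM, with medians of 0.20 and 0.29. Of all genes, 21.0% rose and 23.2% fell at 2 mM and 14.3% rose and 19.1% fell at 11 mM. Among the ligands, Tgfb3 rose at 1.81 and 1.31, from 0.843 ± 0.323 to 3.05 ± 0.412 CPM at 2 mM, while Tgfb2 fell at -1.03 and -1.21. Tgfb1 was at 1.71 ± 0.277 CPM with GFP and 1.74 ± 0.318 CPM with the ChREBPβ label at 2 mM, a log2 fold change of -0.01. At 11 mM it was at 0.856 ± 0.193 and 1.92 ± 0.184 CPM, a rise of 1.16 (edgeR adjusted p = 0.000176), with an interaction of 1.17 (edgeR adjusted p = 0.0225). Ltbp1, which encodes a protein that holds latent TGF-β in the matrix, rose at 1.69 and 1.30. The receptor genes Tgfbr1 (0.54 and 0.44) and Tgfbr3 (0.71 and 0.66) rose at both concentrations, while Tgfbr2, for the type II receptor, had 1 count in all 12 libraries together. Smad7, an inhibitor induced by the pathway, was at 0.07 and 0.13 and was not called. Skil, also in the list, was lower with the ChREBPβ label. It was at 32.8 ± 5.05 CPM with GFP and 25.4 ± 0.377 CPM with the label at 2 mM, and at 29.6 ± 3.05 and 24.9 ± 0.964 CPM at 11 mM. Tgif1 was higher, at 4.07 ± 0.813 and 6.88 ± 0.343 CPM at 2 mM and at 5.95 ± 0.555 and 7.90 ± 0.526 CPM at 11 mM. Tgfb1, Skil, Tgif1 and the receptor and Smad genes were named after their values were seen.

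Markers of other cells were counted beside these genes. Of the 9 duct markers, 7 were tested, and 3 rose and 1 fell at 2 mM and 5 rose at 11 mM, with medians of 0.72 and 0.79. Their summed level was 28.5 to 31.2 CPM and 42.5 to 48.0 CPM in the GFP libraries and 53.1 to 55.4 CPM and 60.1 to 64.1 CPM in those labelled ChREBPβ, at 2 and 11 mM, while Cftr and Spp1 had no count in any library. Sox9, a transcription factor of ducts and progenitors, rose at 3.26 at 2 mM (edgeR adjusted p = 6.8e-13) and at 3.04 at 11 mM (edgeR adjusted p = 4.16e-13), from 0.838 ± 0.219 to 8.19 ± 0.115 CPM at 2 mM. Slc4a4, a bicarbonate cotransporter, rose at 1.02 and 0.32 and Muc1, a mucin, at 0.99 and 1.38. The summed levels of the other lists were 4.26 to 7.55 CPM over all libraries for 6 fibroblast markers, 0.695 to 1.86 CPM for 4 endothelial markers and 0.481 to 1.22 CPM for 4 leukocyte markers, with Dcn, Lum, Emcn and Ptprc at 0 in every library. In these lists, the fibroblast gene Postn fell at 11 mM (-0.36), and Kdr, a receptor gene of endothelium, fell at -0.81 and -0.98. Pdgfrb, a receptor gene of pericytes and fibroblasts, was called higher in both comparisons, at 0 to 1 count per library with GFP and 23 to 55 with the ChREBPβ label, and passed the filter through the latter. The leukocyte gene Cd68 rose at 1.04 at 2 mM, from 0.361 ± 0.0695 to 0.775 ± 0.291 CPM. Of the 14 β-cell markers, 12 fell at 2 mM and 11 at 11 mM, and 1 rose at each, with medians of -1.11 and -0.87. The gene that rose was Slc2a2, for the glucose transporter GLUT2, with 437 ± 13.8 CPM in GFP libraries and 618 ± 18.2 CPM under the ChREBPβ label at 2 mM. At 11 mM the levels were 489 ± 16.1 and 675 ± 10.2 CPM, and the groups overlapped at neither concentration. Their largest falls were those of Nkx6-1 (-1.61 and -1.42), Pcsk1 (-1.61 and -1.29) and Iapp (-1.55 and -1.35). The part that these marker lists have in the values of the keratins, Vim and the transcription factors was not tested.

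The genes whose log2 CPM followed each member most closely over the 12 libraries were searched among the 12477 genes that averaged 1 CPM or more, and the correlations describe libraries that fall into 4 groups. For Snai1 they were Fasn, the fatty acid synthase gene (r = 0.996), and Errfi1, a feedback inhibitor of the EGF receptor (r = 0.996). For Krt18 they were Cnp (r = 0.992) and Sh2d3c (r = 0.991), for Krt8 Vps37d (r = 0.969) and Tada3 (r = 0.968), and for Krt7 Cdh4 (r = 0.973) and Tff3, a trefoil factor (r = 0.972). Snai2 was followed by Parp14 (r = 0.977) and Dcbld2 (r = 0.975), and Zeb1 by Sall2 (r = 0.985) and Fbrsl1 (r = 0.981). The genes closest to Vim, Zfpm2 and Fzd4, had r = 0.932, and those closest to Zeb2 were RGD1565498 (r = 0.940) and Adgra1 (r = 0.920). Among the members themselves, r was -0.848 between Snai1 and Krt18, -0.894 between Snai1 and Snai2 and 0.836 between Krt8 and Krt18.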

How the data were processed

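RNA of INS-1 832/13 cells was amplified and sequenced by the authors in paired-end reads, and counts per gene were deposited without normalization. Per the labels' processing notes the build was Rnor_6.0 and edgeR was used; the aligner and the counting program are not given in the sources used here. The table also holds 4 columns of group means, which were not used. A row without a name (0.00430% to 0.00601% of a library) was left out.

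Using R 4.3.3 and edgeR 4.0.16, genes were kept by filterByExpr (at least 0.220 CPM in at least 3 libraries and 15 counts in all), and counts were scaled by TMM factors (0.958 to 1.06). The 4 groups were fitted together by the quasi-likelihood method over the 12 libraries, and p-values were adjusted by Benjamini-Hochberg over the 14669 genes tested. Log2 CPM for correlations used a prior count of 2. Ratios of counts were compared by exact two-sided permutation. Library depth was 25754488 to 60531215 counts. No pair of replicates agreed within sampling noise (chi-square per degree of freedom 3.06 to 16.6). Scripts were tested on simulated data. Alternatives were DESeq2 1.42.0, RLE factors, library totals, other filters and minimum folds, the replicate letter as a block, the compared groups only, and leaving out each library. The members and lists were chosen with earlier results of these data known. For each list, at most 3 genes with the largest change among those called, at a mean of at least 1 CPM and without overlap, were named for each glucose concentration, together with Cdh1, Cdh2, Fn1 and Twist1; other names are marked or were chosen after their values were seen. Upstream sequences came from RefSeq tables with Python.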

Additional observations from a re-analysis of the deposited data

Results flagged for a closer look

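For Krt8 and Krt18 the difference between libraries labelled ChREBPβ and GFP libraries was not the same at 2 and 11 mM glucose by a test of that difference. The log2 fold change of Krt8 was 0.28 higher at 11 mM than at 2 mM (edgeR adjusted p = 0.0204), and that of Krt18 was 0.31 higher (edgeR adjusted p = 0.0133). Both were lower in GFP cells at 11 mM than at 2 mM, in all 3 libraries of each group. Of the 12 fits without a library, 5 lost the call of this difference for Krt8 and 2 lost it for Krt18. Groups of 3 libraries were too small for a test of single outlying libraries.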

How the results depend on the processing

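Vim and Zeb2 rested on up to 46 counts per library, and the calls of Vim at 2 mM and Zeb2 at 11 mM were near the threshold, while Nes and Krt19 had too few counts to be tested. Of 474 values under another setting with all libraries, 439 kept direction and call, and of 672 without a library, 610 did. Between the viruses, calls of Snai1 and Krt18, of Snai2 at 2 mM and of Krt7 at 11 mM were kept in every fit without a library, with the log2 fold change of Snai1 at 2 mM between 4.50 and 5.42. The ratios per kilobase were not run, since no transcript lengths were used here. Where values changed, the cause was not tested, except that filters and minimum folds remove genes by their construction.

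When libraries were scaled by their totals alone, 1 member was called for glucose in the cells labelled ChREBPβ, and 2 log2 fold changes changed sign, Krt7 between ChREBPβ at 11 mM and GFP at 2 mM (-0.0071) and Krt8 between the viruses at 11 mM (-0.074). With at least 10 counts in every library, 3 members were called between the viruses at 11 mM and 2 between ChREBPβ at 2 mM and GFP at 11 mM. With no minimum fold, 1 member and 1100 genes were called for glucose in cells labelled ChREBPβ, 5030 genes for glucose in GFP cells and 6109 between ChREBPβ at 2 mM and GFP at 11 mM. With a minimum of 2-fold, the members called were 3 at 2 mM, 2 at 11 mM, 3 between ChREBPβ at 2 mM and GFP at 11 mM, and 0 for glucose in GFP cells and for the interaction, where edgeR had 4 and 3 members at an unadjusted p under 0.05; the genes called were 1456 at 2 mM, 992 at 11 mM, 294 for glucose in GFP cells, 28 for glucose in the others, 1866 and 795 in the crossed comparisons and 108 for the interaction.

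Without single libraries, 0 to 2 members were called for the interaction and 0 to 1 for glucose in cells labelled ChREBPβ. Log2 fold changes that changed sign ranged from -0.0983 to 0.115 for Snai2 and from -1.02 to 0.0715 for Vim with glucose in cells labelled ChREBPβ, from -0.0772 to 0.173 for Vim with glucose in GFP cells, from -0.0238 to 0.0403 for Krt8 between the viruses at 11 mM, and for the interaction from -0.818 to 0.106 for Snai1, from -1.07 to 0.0187 for Vim and from -0.251 to 0.114 for Zeb2.

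With the replicate letter as a block (replicate block), 5 members were called at 2 mM and 5 at 11 mM, as Vim at 2 mM (adjusted p = 0.0515) and Zeb2 at 11 mM (adjusted p = 0.0611) were lost. Libraries with the same letter did not deviate together (correlations of -0.114 to 0.0644 over 18 pairs), and the main fit used no pairing. Such correlations cannot exclude that a letter stands for a shared experiment.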
